A study of Mus musculus with 12 samples.

Results

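Serpins are a family of serine and cysteine protease inhibitors, and many of the most abundant plasma proteins made by the liver belong to it. The genes described here are the 31 genes of the expression table, of 11289 in all, whose symbol starts with Serpin. By the letter in the symbol, 17 belong to clade A, 6 to clade B and 2 to clade F, and the others are each the only member of their clade in the table. Their level was measured by RNA sequencing in whole liver of 12 C57BL/6J mice, with 4 mice in each of 3 groups. Concanavalin A (Con A) is a lectin of the jack bean that stimulates T cells and so injures the liver. It was injected into the tail vein at 15 mg/kg in the Con A and Con A + MSCs groups. The Con A mice were then given PBS, and the Con A + MSCs mice were given hWJ-MSCs, human mesenchymal stem cells grown from the jelly around the vessels of an umbilical cord (Wharton's jelly), in both cases intravenously and 30 min after Con A. The sample labels give 2000000 cells per mouse, an age of 8 to 10 weeks and collection of the liver at 24 h, and they do not state what the control mice were injected with. The study's methods give other numbers for the cells and the age, and give the mice as male. No genetic change is named, and no source says whether the cells came from more than 1 donor.

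A serpin offers an exposed stretch of amino acids near its C-terminal end, the reactive center loop, as bait for a protease. When the protease cuts this loop, the inhibitor changes shape and traps the enzyme in a covalent complex, so each inhibitor molecule is used up with its target. Hepatocytes secrete the serpins that restrain clotting, fibrinolysis, complement and neutrophil elastase, several of which are acute phase proteins, while serpins of clade B lack a secretion signal and protect cells from proteases of their own granules. A few members, such as the carriers of cortisol and thyroxine and the collagen chaperone Hsp47, bind other ligands and inhibit no protease.

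The deposited table gives whole numbers that the authors had normalized between mice before deposit, here called values, and not raw counts. The totals of the 12 mice lay between 17649654 and 17657159, so sequencing depth is unknown. The 8024 highest values were the same numbers in every mouse, and the top 60 values of each mouse fell into 6 steps of 10 genes each, from 341028 at the highest step to between 34238 and 34530 at the lowest. A gene at 341028 could not be listed any higher, and a gene within the steps could move only from step to step. Each step held 10 genes in every mouse, so a gene that entered a step put another out of it. Of the Serpin genes, 9 reached these steps in at least 1 mouse, namely Serpina1a, Serpina1b, Serpina1c, Serpina1d, Serpina1e, Serpina3k, Serpina3m, Serpina3n and Serpinc1, and the other 22 did not. Because the values are not stated to be scaled to transcript length, levels are compared below between mice for the same gene and not between genes. Gene names, transcripts and positions in the table matched GENCODE M21 on the GRCm38 build for all 31 Serpin genes, and 27 of the transcripts had the same start and end there.

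Of the 31 genes, 16 lie within a stretch of 0.8 megabases on chromosome 12 (chr12:103614786-104414329), in which 28 genes named Serpin are annotated. Copies in this stretch resemble each other. Among the 5 Serpina1 genes, the mouse counterparts of human α1-antitrypsin, pairs had between 91.5% and 96.7% of coding bases in common, and among 6 of the Serpina3 genes, counterparts of human α1-antichymotrypsin, pairs had between 72.1% and 90.8%. Windows of 150 bases, the read length, were found identically in another annotated transcript for 50.5% of windows of Serpina1c, 40.7% of Serpina1a, 23.3% of Serpina1d, 21.2% of Serpina1b and 7.57% of Serpina1e, so the division of reads among these 5 genes is uncertain. The share was 39.6% for Serpina11, whose windows recur in the overlapping transcript Gm28577, and at most 0.331% for Serpina3k and Serpina3m. For the other 23 Serpin genes no window was shared. An antisense gene, B430119L08Rik, lies within Serpina1c, and the library kit as described does not mark strand, so reads of the pair cannot be told apart.

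Copies of mouse serpins are known to vary in the reactive center loop, and its coding sequence is shown because this stretch sets which protease a copy can hold and because it tells these near-identical genes apart. Below are 90 bases of the last exon of the 5 Serpina1 genes, read 5′ to 3′ on the minus strand of GRCm38, with capitals at each base that differs from Serpina1a. They lie in exon 6 of 6 of Serpina1a (chr12:103853750-103853839) and in exon 5 of 5 of Serpina1b (chr12:103728317-103728406), Serpina1c (chr12:103895087-103895176), Serpina1d (chr12:103763755-103763844) and Serpina1e (chr12:103947093-103947182).
Serpina1a: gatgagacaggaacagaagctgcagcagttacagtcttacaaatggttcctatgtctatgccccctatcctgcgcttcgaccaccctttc
Serpina1b: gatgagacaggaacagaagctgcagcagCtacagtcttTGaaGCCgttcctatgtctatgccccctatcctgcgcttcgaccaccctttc
Serpina1c: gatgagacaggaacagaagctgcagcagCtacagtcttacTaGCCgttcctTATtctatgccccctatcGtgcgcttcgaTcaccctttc
Serpina1d: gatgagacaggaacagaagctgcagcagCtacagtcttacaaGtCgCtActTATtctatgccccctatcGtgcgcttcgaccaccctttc
Serpina1e: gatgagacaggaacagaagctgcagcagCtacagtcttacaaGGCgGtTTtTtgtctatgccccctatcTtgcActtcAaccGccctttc
Against Serpina1a, 6 bases differ in Serpina1b, 10 in Serpina1c, 9 in Serpina1d and 12 in Serpina1e.

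For 4 Serpina3 genes the same part of the last exon is given on the plus strand of GRCm38, from a shared start of 17 bases to an end of 15 bases that varies between the genes, with the bases between them in capitals. These are exon 6 of 6 of Serpina3i (chr12:104268486-104268569) and exon 5 of 5 of Serpina3k (chr12:104345275-104345352), Serpina3m (chr12:104393775-104393858) and Serpina3n (chr12:104413454-104413537).
Serpina3i: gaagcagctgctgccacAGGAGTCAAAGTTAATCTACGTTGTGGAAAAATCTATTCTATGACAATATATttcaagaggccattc
Serpina3k: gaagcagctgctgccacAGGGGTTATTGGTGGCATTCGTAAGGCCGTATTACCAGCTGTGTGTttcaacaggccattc
Serpina3m: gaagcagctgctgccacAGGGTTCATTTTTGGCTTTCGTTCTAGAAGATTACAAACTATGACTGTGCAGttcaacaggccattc
Serpina3n: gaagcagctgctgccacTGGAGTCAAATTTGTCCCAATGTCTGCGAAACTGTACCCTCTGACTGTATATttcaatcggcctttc
The stretch in capitals was 52 bases in Serpina3i, Serpina3m and Serpina3n and 46 bases in Serpina3k.

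To ask how Con A changed the Serpin genes, the Con A mice were compared with the control mice. Of 31 genes, 14 rose and 9 fell, at an adjusted p below 0.05 by limma with Benjamini-Hochberg adjustment over all genes and a fold change above 1.5. These 23 genes are 74.2% of the family, where 38.8% of all genes passed the same test, with 19.5% rising and 19.2% falling. The groups did not overlap for 24 of the 31 genes (77.4%), beside 50.4% of all genes. The median size of the log2 fold change, regardless of sign, was 1.63 for the Serpin genes and 0.459 for all genes. Among the 9 genes that reached the highest steps 3 rose and 3 fell, and among the other 22 there were 11 that rose and 6 that fell. Where the groups did not overlap, the two-sided exact permutation test of 4 against 4 mice gave p = 0.0286, the smallest that it can give.

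**Figure D1:**
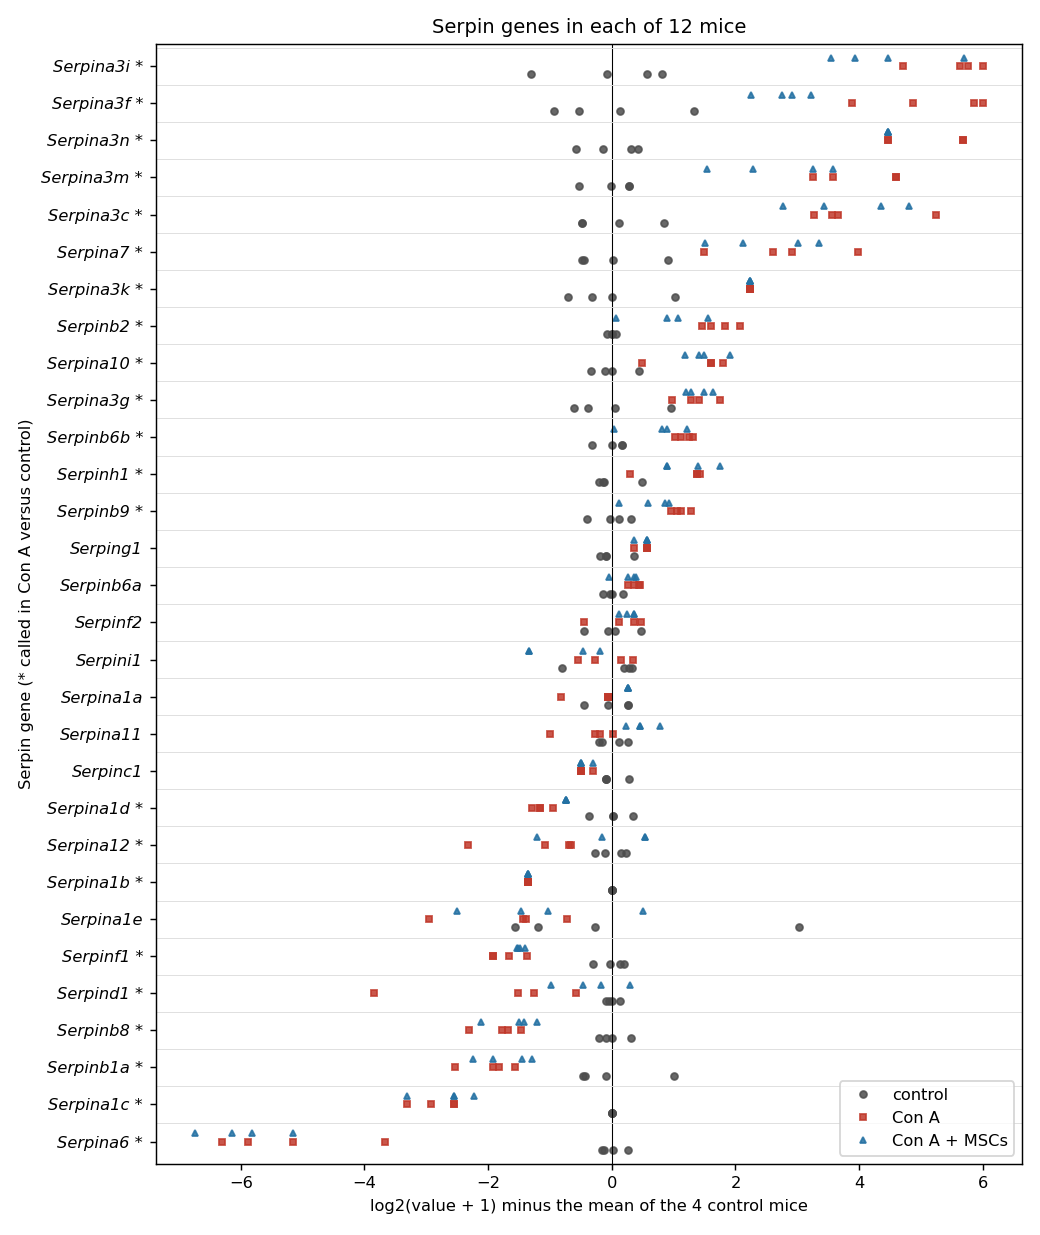
Serpin genes in each of the 12 mice, as log2(value + 1) minus the mean of the 4 control mice (x axis), with genes ordered by the difference between Con A and control and an asterisk on those that passed the test in that comparison. Of the genes plotted, 6 of the 7 Serpina3 genes and Serpina7 lie far to the right after Con A, and Serpina6 and Serpina1c lie farthest to the left.

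The Serpina3 genes, which in human have a single counterpart that inhibits cathepsin G and chymase, all rose after Con A. The table holds 7 of them. Serpina3n, an extracellular inhibitor of granzyme B in the mouse, was 4466, 6046, 8248 and 8920 in the control mice, 341028, 147960, 147960 and 341028 in the Con A mice and 147960 in each of the 4 Con A + MSCs mice. It thus reached the highest step in 2 Con A mice and stood at the next step in the other 6 treated mice, far above every control mouse. The log2 fold change of Con A over control was 5.07 (SE 0.31, limma adjusted p = 2.13e-07).

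Serpina3m behaved in a like manner below the ceiling. Its values were 4224, 7384, 6064 and 7384 in control mice, 148316, 58393, 72892 and 148316 in Con A mice and 29795, 17720, 58393 and 72892 in Con A + MSCs mice. All 8 treated mice lay above all 4 controls, and the Con A + MSCs mice reached from below the Con A group into it. The log2 fold change after Con A was 4.01 (SE 0.43, limma adjusted p = 1.36e-05). Serpina3k, also known as a kallikrein-binding protein, was 58110, 44548, 147767 and 72724 in control mice and 341028 in all 8 treated mice, so it sat at the ceiling in every mouse that had Con A. Its log2 fold change of 2.23 (SE 0.29, limma adjusted p = 5.57e-05) is limited by that ceiling, and the comparison between the treated groups is held at 0.

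Serpina3f and Serpina3i were low in control liver. Serpina3f was 40, 148, 30 and 64 in control mice, 3445, 872, 1724 and 3801 in Con A mice and 554, 280, 448 and 398 in Con A + MSCs mice. The 3 groups did not overlap with each other, and the Con A + MSCs mice lay between the other groups. After Con A the log2 fold change was 5.15 (SE 0.51, limma adjusted p = 6.63e-06). Serpina3i was 12, 10, 6 and 2 in control mice, 402, 192, 366 and 474 in Con A mice and 112, 85, 162 and 384 in Con A + MSCs mice. Here the treated groups overlapped, since Con A + MSCs replicate 4 lay within the Con A range, and the log2 fold change after Con A was 5.53 (SE 0.51, limma adjusted p = 4.29e-06). Since the control values were low, this size depended on the pseudocount and was 4.36 with a pseudocount of 10.

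The remaining Serpina3 genes were Serpina3c and Serpina3g. Serpina3c, another relative of kallikrein-binding protein, was 1, 2, 4 and 1 in control mice, 34, 32, 26 and 104 in Con A mice and 29, 18, 56 and 77 in Con A + MSCs mice. It was close to 0 in all 4 control mice, so its log2 fold change of 3.93 (SE 0.61, limma adjusted p = 1.9e-04) depended on the pseudocount and was 2.14 with a pseudocount of 10. Serpina3g, known as Spi2A, is an inhibitor of lysosomal cathepsins that acts inside cells. It was 108, 276, 92 and 146 in control mice, 376, 476, 347 and 278 in Con A mice and 400, 441, 328 and 344 in Con A + MSCs mice. The highest control mouse and the lowest Con A mouse were only 2 apart, and the log2 fold change was 1.35 (SE 0.28, limma adjusted p = 0.00153).

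**Figure D2:**
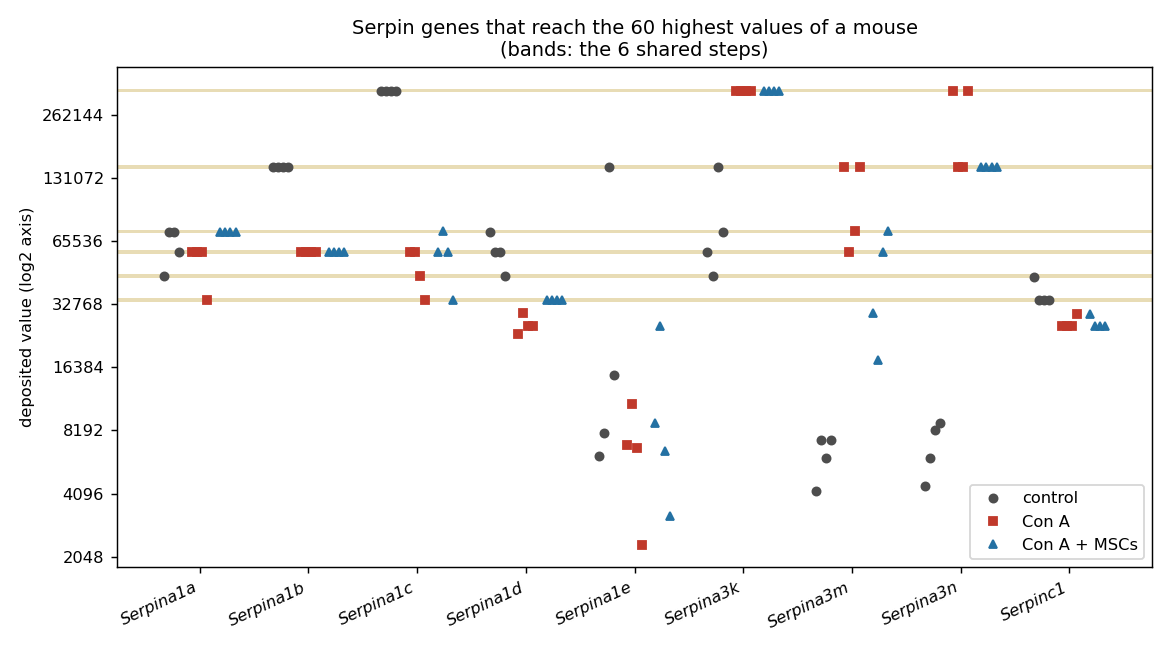
Deposited values (log2 axis) of the 9 Serpin genes that reached the 60 highest values of a mouse, in each of the 12 mice, with bands at the 6 shared steps. Serpina1b and Serpina1c stepped down in all 8 treated mice, while Serpina3k was at 341028 in all of them.

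The Serpina1 genes are counterparts of human α1-antitrypsin, an inhibitor of neutrophil elastase, and in the mouse they did not rise with the Serpina3 genes. Their loops differ, as shown above, and which protease each copy holds was not tested. Serpina1c was 341028 in all 4 control mice, 58210, 58210, 44696 and 34419 in Con A mice and 58210, 72783, 58210 and 34419 in Con A + MSCs mice. Every treated mouse lay at least 2 steps below the control mice, and the log2 fold change after Con A was -2.84 (SE 0.24, limma adjusted p = 2.06e-06). Since the controls were at the ceiling, their true level above it is not known. Other genes, such as Serpina3k, entered the highest step after Con A. How far such entries put Serpina1b, Serpina1c and Serpina1d into lower places was not tested.

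Serpina1b was 147377 in each control mouse and 57910 in each of the 8 treated mice. It had no spread within a group, because all mice of a group stood at the same step, and its log2 fold change was -1.35 with an SE of 0.12 that comes from the other genes of the fit (limma adjusted p = 3.35e-06). Serpina1d was 72724, 58110, 58110 and 44548 in control mice, 23596, 29668, 25805 and 25805 in Con A mice and 34359 in each Con A + MSCs mouse. The 3 groups were apart from each other, with the Con A mice lowest, and the log2 fold change after Con A was -1.14 (SE 0.15, limma adjusted p = 6.74e-05).

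For Serpina1a and Serpina1e no change passed the test after Con A. Serpina1a was 44548, 72724, 72724 and 58110 in control mice and 58110, 58110, 58110 and 34359 in Con A mice, and the log2 difference was -0.26 (95% interval -0.71 to 0.20). Serpina1e was 6164, 7966, 147960 and 15125 in control mice, so that control replicate 3 stood far above the other 3, and between 2344 and 10972 in Con A mice. The interval of its log2 difference reached from -3.59 to 0.34. The identical windows given above limit how far any of the 5 Serpina1 values can be assigned to its own gene.

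The inhibitors of clotting and fibrinolysis moved in both directions. Serpina10, the protein Z-dependent inhibitor of coagulation factor X in its active form, was 3467, 4408, 5952 and 4060 in control mice, 15198, 13327, 13327 and 6182 in Con A mice and 9922, 11676, 16434 and 12268 in Con A + MSCs mice. Con A replicate 4 stood well below the other treated mice but above the controls, and the log2 fold change was 1.37 (SE 0.27, limma adjusted p = 0.00102). Serpind1, heparin cofactor II, a thrombin inhibitor, was 6498, 6720, 7576 and 6916 in control mice, 2408, 4636, 2888 and 479 in Con A mice and 5016, 8498, 6137 and 3478 in Con A + MSCs mice. All Con A mice were below all control mice, and replicate 4 was the lowest by far. The log2 fold change was -1.80 (SE 0.53, limma adjusted p = 0.012), and it was -1.12 without Con A replicate 4 (limma adjusted p = 0.00468).

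Serpinc1, antithrombin, the main plasma inhibitor of thrombin, was 44248 in control replicate 1 and 34238 in the other 3, and 25738 in 3 and 29578 in 1 of the mice of each treated group. The treated mice were lower without overlap, but the log2 difference of -0.45 (SE 0.13, limma adjusted p = 0.0106) was under the fold limit. Serpinf2, α2-antiplasmin, the inhibitor of plasmin itself, ranged from 9389 to 17639 in both the control and the Con A mice, with a log2 difference of 0.12 (95% interval -0.34 to 0.59). So among these 4 genes Serpina10 rose, Serpind1 fell, and Serpinc1 and Serpinf2 did not pass.

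Of 28 listed proteases and partners of clotting and fibrinolysis, 26 were in the table, of which 5 rose and 12 fell after Con A (65.4%, beside the 38.8% of all genes). The largest changes were those of Plaur, the urokinase receptor (log2 fold change 4.21), Procr, the protein C receptor (3.86), and Klkb1, plasma prekallikrein (-3.60). Plaur and Procr had control means of 7.75 and 6.75, so their changes depended on the pseudocount and were 3.22 and 2.75 with a pseudocount of 10. The median over the 26 genes was -0.46, where the median over all genes was 0.045.

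Serping1, the C1 inhibitor of complement and of plasma kallikrein, was 18853, 17600, 25738 and 18853 in control mice, and in each treated group it was 29578 in 3 mice and 25738 in 1. Control replicate 3 shared the value of the lowest treated mice. The log2 difference of 0.51 after Con A (SE 0.14, limma adjusted p = 0.00803) was under the fold limit, and without control replicate 3 it was 0.63 and passed (limma adjusted p = 0.00116). Of 10 listed complement genes that the C1 inhibitor acts on or with, 8 were in the table, and 1 rose and 4 fell (62.5%). The rise was lost, leaving 0, without control replicate 1 or 3 or without Con A replicate 1, 2 or 3, and at a fold limit of 2. The largest falls were those of C1qa (-1.94), C1qc (-1.85) and C1qb (-1.66), subunits of C1q that macrophages make.

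Serpina6 and Serpina7 are carriers of hormones and not protease inhibitors, and they moved in opposite directions. Serpina6, corticosteroid-binding globulin, was 5783, 4860, 4408 and 4310 in control mice, 134, 60, 80 and 378 in Con A mice and 67, 134, 84 and 44 in Con A + MSCs mice. The highest treated mouse was far below the lowest control mouse, and the treated groups overlapped. With a log2 fold change of -5.25 (SE 0.47, limma adjusted p = 3.32e-06) it fell the most of the 31 genes.

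Serpina7, thyroxine-binding globulin, was 602, 1582, 615 and 848 in control mice, 6329, 13253, 5144 and 2361 in Con A mice and 3652, 2401, 8544 and 6764 in Con A + MSCs mice. All treated mice were above all controls, and the log2 fold change after Con A was 2.75 (SE 0.51, limma adjusted p = 7.13e-04). Of 14 other listed plasma carriers of hormones and lipids, 12 were in the table, and 0 rose (1 without Con A replicate 4) and 8 fell (66.7%) after Con A, among them Apoa2 (-2.41) and Rbp4, the retinol carrier (-2.27). The 12 had a median log2 fold change of -1.48.

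Serpina12 and Serpina11 are neighbors on chromosome 12 among the genes of the table. Serpina12, vaspin, is an inhibitor of kallikrein 7 first described as a hormone of fat tissue. It was 596, 532, 710 and 747 in control mice, 406, 396, 303 and 127 in Con A mice and 571, 925, 933 and 276 in Con A + MSCs mice. The Con A mice lay below the control mice without overlap, and the log2 fold change was -1.19 (SE 0.41, limma adjusted p = 0.025). The call was lost without control replicate 3 (limma adjusted p = 0.0555), control replicate 4 (0.0593) or Con A replicate 4 (0.0668, with a log2 difference of -0.81). Serpina11 was 1396, 1350, 1869 and 1706 in control mice and 1294, 1588, 1378 and 783 in Con A mice, and its log2 difference of -0.36 (SE 0.20, limma adjusted p = 0.15) did not pass.

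Among the 6 intracellular serpins of clade B, 3 rose, 2 fell and 1 did not pass the fold limit after Con A. Over all genes 38.8% passed in this comparison, with 19.5% rising and 19.2% falling. Serpinb9, the inhibitor of granzyme B that shields cytotoxic cells and their targets, was 170, 118, 154 and 194 in control mice, 325, 340, 380 and 306 in Con A mice and 299, 284, 234 and 170 in Con A + MSCs mice. The Con A mice lay above both other groups without overlap, and the log2 fold change after Con A was 1.10 (SE 0.19, limma adjusted p = 3.49e-04). Of its target and related granule genes only 4 of 16 listed were in the table, of which Gzmb (log2 fold change 5.32), Gzma (3.96) and Srgn, the proteoglycan of the granules (2.78), rose and 1 fell. With a pseudocount of 10 the changes were 4.56 for Gzmb and 3.02 for Gzma, whose control means were 11.8 and 8.75.

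Serpinb2, plasminogen activator inhibitor 2, a stress-induced protein of macrophages, was 18, 19, 19 and 20 in control mice, 60, 83, 70 and 54 in Con A mice and 58, 36, 20 and 41 in Con A + MSCs mice. Con A + MSCs replicate 3 stood at the control level and the other Con A + MSCs mice lay above it, while all Con A mice were above the controls (log2 fold change 1.74, SE 0.30, limma adjusted p = 4.04e-04). Serpinb6b was 34, 38, 27 and 38 in control mice, 75, 70, 82 and 86 in Con A mice and 80, 64, 60 and 35 in Con A + MSCs mice. It likewise rose after Con A without overlap (1.18, SE 0.24, limma adjusted p = 0.0013). Its relative Serpinb6a, an inhibitor of cathepsin G, went from between 138 and 173 to between 184 and 210, also without overlap, but the log2 difference of 0.38 (SE 0.12, limma adjusted p = 0.0155) was under the fold limit.

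The 2 clade B genes that fell were Serpinb1a and Serpinb8. Serpinb1a, an inhibitor of neutrophil elastase and cathepsin G, was 218, 78, 80 and 102 in control mice, 30, 28, 18 and 36 in Con A mice and 44, 39, 28 and 22 in Con A + MSCs mice. Serpinb8 was 85, 122, 98 and 92 in control mice, 28, 30, 35 and 19 in Con A mice and 34, 36, 42 and 22 in Con A + MSCs mice. For both, every control mouse was above every treated mouse, and the log2 fold changes after Con A were -1.96 (SE 0.35, limma adjusted p = 5.46e-04) for Serpinb1a and -1.81 (SE 0.26, limma adjusted p = 9.21e-05) for Serpinb8.

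Markers of several blood and liver cell types moved with these genes. For comparison, 19.5% of all genes rose and 19.2% fell after Con A, and 4.2% rose and 4.38% fell with the cells. The 9 of 10 listed Kupffer cell markers in the table all fell after Con A, with a summed value of 6758 to 10949 in control, 1018 to 1968 in Con A and 1435 to 2628 in Con A + MSCs mice. Of 12 markers of recruited myeloid cells 11 were in the table, and 10 rose and 1 fell, with sums of 1170 to 1523, 2658 to 3921 and 2629 to 4484 in the same order, and Retnlg was at 0 in at least 1 mouse. Of 12 T and NK cell markers only 4 were in the table, and all 4 rose, from sums of 31 to 66 in control to 480 to 955 in Con A and 506 to 828 in Con A + MSCs mice, with Cd8a at 0 in at least 1 mouse. Sinusoidal endothelial markers, 10 of 10 in the table, summed to between 4081 and 5687, 1964 and 2734, and 2202 and 3122 in the same order. Of these, 7 fell and 1 rose after Con A, and 1 rose and 2 fell with the cells. All 5 of 6 listed red blood cell markers in the table fell after Con A, with sums of 4523 to 8415, 1944 to 3326 and 1625 to 2554. Of 9 of 10 stellate cell and fibroblast markers 4 fell after Con A and 1 rose with the cells, with sums of 5555 to 8752, 6424 to 7497 and 4824 to 10180. Of 5 of 8 cholangiocyte markers 1 rose after Con A, with sums of 2710 to 4865, 2660 to 13505 and 2605 to 6884 and Cftr at 0 in at least 1 mouse. The only B cell marker of 8 in the table, Ighm, fell after Con A, from between 122 and 336 to between 74 and 204, and was between 92 and 204 with the cells. Hepatocyte markers, 10 of 10 in the table, summed to between 829578 and 1061951 in control, 700264 and 738956 in Con A and 733769 and 799160 in Con A + MSCs mice, and 4 fell and 1 rose after Con A. In whole tissue, fewer cells of a type and less RNA per cell cannot be told apart, and the part of cell numbers in the Serpin changes was not tested.

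The last 3 genes have separate roles. Serpinh1, Hsp47, the chaperone of collagen in the endoplasmic reticulum, was 462, 298, 287 and 301 in control mice, 864, 894, 856 and 404 in Con A mice and 612, 1115, 874 and 616 in Con A + MSCs mice. Con A replicate 4 lay below control replicate 1, so the groups overlapped, yet the rise passed the test (log2 fold change 1.12, SE 0.27, limma adjusted p = 0.00416, exact permutation p = 0.0571). Of 20 listed genes of collagen folding and secretion, 18 were in the table, and 7 rose and 0 fell after Con A (38.9%, close to the 38.8% of all genes, with a median log2 difference of 0.32), with Col4a1 (2.67), P4ha2 (2.56) and Plod2 (2.15) rising the most. Up to 2 fell with 1 mouse left out, namely 2 without Con A replicate 2 and 1 without control replicate 3, Con A replicate 3 or Con A + MSCs replicate 2.

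Serpinf1, pigment epithelium-derived factor, is secreted and restrains vessel growth. It was 8920, 10370, 7356 and 9880 in control mice, 2870, 2380, 2380 and 3494 in Con A mice and 3168, 3406, 3130 and 3232 in Con A + MSCs mice. The spread within each group was small beside the gap to the controls, and the log2 fold change after Con A was -1.72 (SE 0.14, limma adjusted p = 2.07e-06). Serpini1, neuroserpin, an inhibitor of tissue plasminogen activator in the nervous system, lay between 44 and 99 in control and Con A mice with no detectable difference (log2 difference -0.08, 95% interval -0.81 to 0.65).

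The 16 genes of the chromosome 12 stretch changed in opposite directions over short distances. In the order on the chromosome, Serpina10 at its start rose, Serpina6 fell, 3 of the 5 Serpina1 genes fell, Serpina11 did not pass, Serpina12 fell, and all 7 Serpina3 genes at the far end rose. Serpina6 and Serpina10 are neighbors among the genes of the table, with Serpina6 38.1-fold lower and Serpina10 2.59-fold higher in Con A than in control mice on the log2(value + 1) scale.

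**Figure D3:**
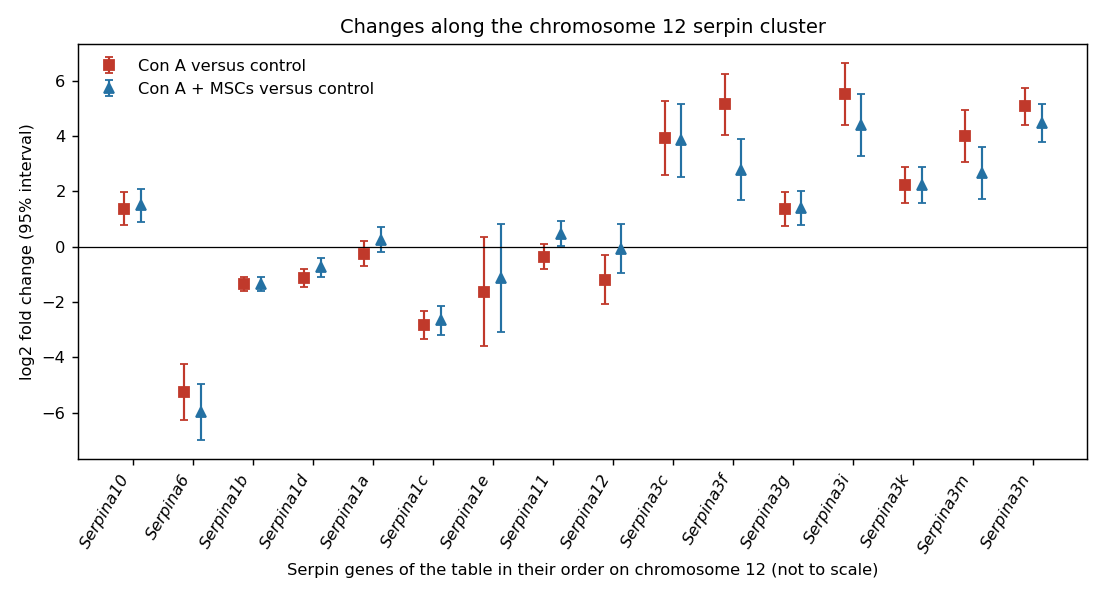
Log2 fold changes (y axis, with 95% intervals of the fit) of the 16 Serpin genes of the chromosome 12 stretch, in their order but not to scale, for Con A and for Con A + MSCs, each against the same 4 control mice. The Serpina3 genes at the right lie above 0 in both comparisons, and Serpina6, Serpina1b, Serpina1d and Serpina1c lie below it.

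Promoters are shown for Serpina3f and Serpina3i, chosen among the Serpina3 genes that rose because they hold a match of the letters searched, and beside them that of Serpina1c, which fell. RefSeq promoter sequences (GRCm38.p6, 250 bases before to 50 after the start of transcription) were found for 24 of the 31 genes. Both strands were searched for letters that transcription factors of the acute phase are known to bind. The letters TTCNNNGAA, read by STAT factors such as STAT3, were in the promoters of 6 of the 24 Serpin genes, namely Serpina11, Serpina3f, Serpina3g, Serpina3i, Serpinb2 and Serpinb6a, beside 9.55% of 27025 genes. In Serpinb6a the matches lie in another promoter, 66596 bases from the start of the deposited transcript, so the promoters nearest the deposited starts hold a match in 5 of 24. Of the 7 Serpina3 genes 5 had a promoter sequence, and 3 held a match while 2, Serpina3c and Serpina3n, which rose as well, held 0. The letters TTGCNNAAN of C/EBP factors were in 9 of 24, beside 12.2%, and a pair of GAAA with 2 bases between them, bound by IRF factors, in 2 of 24, namely Serpinb9 and, again only in the distant promoter, Serpinb6a, beside 3.99%. The letters GTTAAT, a part of the site of the hepatocyte factor HNF1, were in 8 of 24 and in all 5 Serpina1 genes, beside 8.24%, while the full HNF1 site, which contains these letters and their reverse complement with 1 base between, was in 0 of 24, beside 0.0111%. Below are the promoters of Serpina3f (chr12:104214294-104214593, plus strand), Serpina3i (chr12:104262872-104263171, plus strand) and Serpina1c (chr12:103904901-103905200, minus strand).
Serpina3f: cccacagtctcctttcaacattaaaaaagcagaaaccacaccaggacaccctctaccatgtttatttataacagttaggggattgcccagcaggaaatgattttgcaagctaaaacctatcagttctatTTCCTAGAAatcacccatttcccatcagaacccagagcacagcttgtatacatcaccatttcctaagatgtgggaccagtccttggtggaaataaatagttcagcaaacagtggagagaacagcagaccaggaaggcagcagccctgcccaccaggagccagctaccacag
Serpina3i: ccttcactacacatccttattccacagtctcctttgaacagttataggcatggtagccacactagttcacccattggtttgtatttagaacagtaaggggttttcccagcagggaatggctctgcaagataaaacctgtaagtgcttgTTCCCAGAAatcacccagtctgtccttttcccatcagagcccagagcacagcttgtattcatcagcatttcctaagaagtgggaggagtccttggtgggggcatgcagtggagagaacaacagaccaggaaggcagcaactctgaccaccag
Serpina1c: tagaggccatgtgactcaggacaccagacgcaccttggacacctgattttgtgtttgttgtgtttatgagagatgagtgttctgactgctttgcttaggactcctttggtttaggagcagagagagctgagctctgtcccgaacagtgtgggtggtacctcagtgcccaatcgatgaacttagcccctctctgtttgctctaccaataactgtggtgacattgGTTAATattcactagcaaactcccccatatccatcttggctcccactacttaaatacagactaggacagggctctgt
Capitals mark TTCNNNGAA in Serpina3f and Serpina3i, beginning at positions -121 and -102 from the start of transcription, and GTTAAT in Serpina1c, beginning at position -27. These are matches of letters, and binding was not measured.

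To ask what the hWJ-MSCs changed, the Con A + MSCs mice were compared with the Con A mice. Of 31 Serpin genes, 1 rose and 2 fell, 9.68% of the family, close to the 8.58% of all genes that passed, with 4.2% rising and 4.38% falling. Over all genes 969 passed, but only 7 without Con A replicate 1, 18 without Con A + MSCs replicate 2 and 7 without Con A + MSCs replicate 3. The number went up to 1575 without Con A replicate 2 and to 1229 without Con A + MSCs replicate 4. The groups did not overlap for 6 genes (19.4%), beside 23.5% of all genes. None of the 9 genes of the highest steps was among the 3, and 2 of them, Serpina1b and Serpina3k, had the same value in all 8 mice. Serpina3f was among the genes that fell, and the gene that rose was Serpina11. This comparison and that of Con A with control use the same 4 Con A mice.

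**Figure D4:**
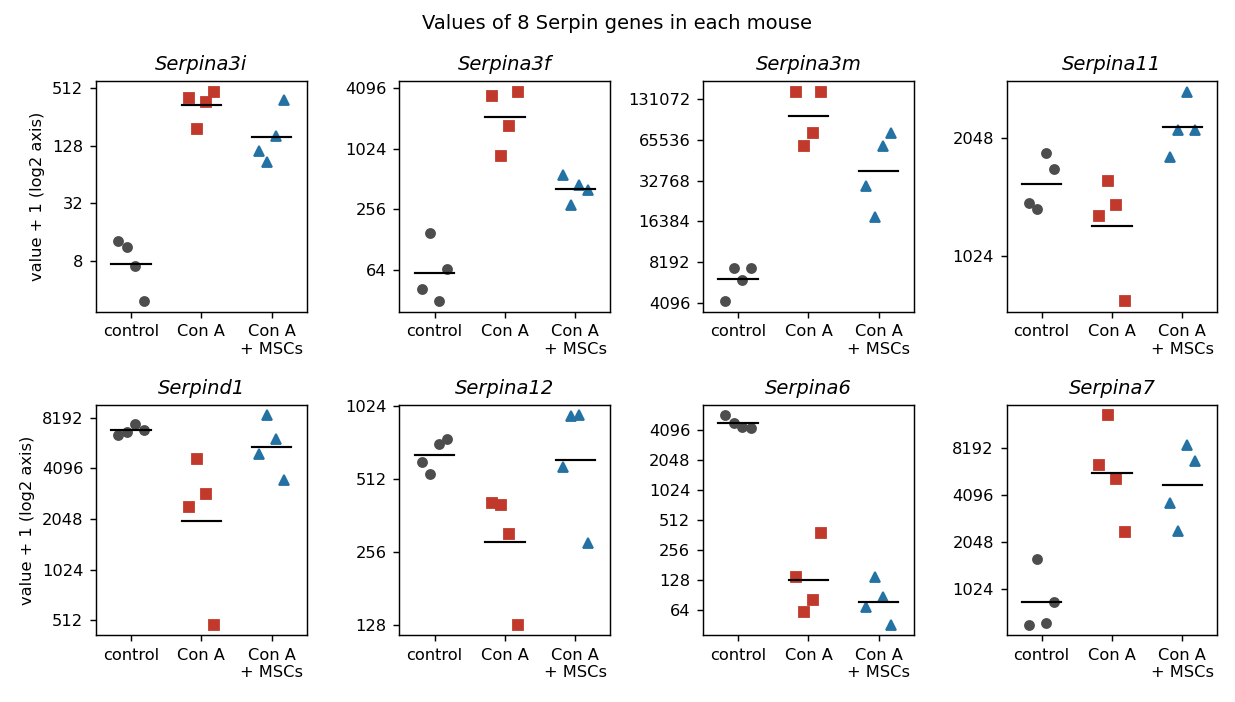
Values plus 1 (log2 axis) of 8 Serpin genes in each mouse of the 3 groups, with bars at the mean of the log2 values. Serpina3f of the Con A + MSCs mice lies between the other 2 groups, and Serpina11 lies above the Con A mice.

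With the values given above, Serpina3f was 5.15-fold lower in Con A + MSCs than in Con A mice (log2 fold change -2.37, SE 0.51, limma adjusted p = 0.0241). It did not return to the control range, since the lowest Con A + MSCs mouse was at 280 and the highest control mouse at 148. The call was lost without Con A replicate 1 (limma adjusted p = 0.0761), Con A replicate 4 (0.051), Con A + MSCs replicate 2 (0.0761) or Con A + MSCs replicate 3 (0.0622), with log2 differences of -2.41 to -2.08.

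Serpina11 was 1826, 2142, 2692 and 2142 in Con A + MSCs mice, above all Con A mice and partly above the control mice, whose highest was 1869. It rose by 0.84 on the log2 scale over Con A (SE 0.20, limma adjusted p = 0.0279), and the call was lost without Con A replicate 1 (0.0761), Con A + MSCs replicate 2 (0.0802) or Con A + MSCs replicate 3 (0.0793). Its reads share windows with Gm28577 as described above. The difference from control, 0.48, did not pass (limma adjusted p = 0.0789).

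Other genes came near the threshold between the treated groups. Serpina3m had a log2 difference of -1.35 (SE 0.43, limma adjusted p = 0.0567), and it passed without Con A replicate 2 (0.0315) or Con A + MSCs replicate 4 (0.0307). Serpinb2 differed by -0.84 (SE 0.30, limma adjusted p = 0.0734), with overlap, and did not pass with any 1 mouse left out. For Serpind1 the difference was 1.47 (SE 0.53, limma adjusted p = 0.0767), and it passed without Con A replicate 2 (0.0284). Serpina12 differed by 1.11 (SE 0.41, limma adjusted p = 0.0788) and passed without Con A + MSCs replicate 4 (0.0254), the mouse that was at 276 while the other 3 were at or above 571. Serpina3i (-1.12, SE 0.51, limma adjusted p = 0.144) also passed without that mouse (0.0499). The remaining genes with no overlap between the treated groups were Serpina1a (0.51, limma adjusted p = 0.106), Serpina1d (0.39, 0.0922) and Serpinb9 (-0.48, 0.0913), and none of these passed.

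Partners of these serpins differed between the treated groups as well. In the clotting and fibrinolysis list 5 genes rose and 3 fell with the cells, 30.8% of the 26, beside 8.58% of all genes. Here 0 rose and at most 1 fell without Con A replicate 1 or 4 or Con A + MSCs replicate 2 or 3. Without Con A replicate 3 and Con A + MSCs replicate 1, left out in turn, 2 and 1 rose. Klkb1 (1.82), F13b (1.42), F10 (0.93), Proc (0.78) and F9 (0.61) rose on the log2 scale, and Thbd, thrombomodulin (-1.86), Plaur (-1.50) and F3, tissue factor (-1.17), fell. Masp2, a lectin pathway protease, rose by 0.78 as the only 1 called of 8 in the complement list (12.5%). Srgn fell by 0.59 as the only 1 called of 4 in the granule list (25%). Masp2 did not pass without Con A replicate 1 or 4 or Con A + MSCs replicate 1, 2 or 3, and Srgn did not pass when any 1 of 8 of the mice was left out. In the collagen list Col4a1 (-0.92), P4ha2 (-1.12) and Plod2 (-0.98) fell and 0 rose, 16.7% of the 18. In this list 0 fell without Con A replicate 1 or Con A + MSCs replicate 2 or 3, and 1 rose without Con A + MSCs replicate 1 or 4. Serpinh1 had a log2 difference of 0.11 (95% interval -0.48 to 0.71). Of the hormone carriers, Serpina6 (-0.71, 95% interval -1.73 to 0.31) and Serpina7 (-0.25, 95% interval -1.37 to 0.86) did not pass.

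Against the same 4 control mice, 14 Serpin genes were higher and 7 lower in the Con A + MSCs mice. That is 67.7% of the family, beside 26.7% of all genes, with 13.6% higher and 13.1% lower, and the groups did not overlap for 19 genes (61.3%), beside 37.9%. Of these, 11 lay above the control mice, beside 20.6% of all genes, and 8 below, beside 17.3%. The control mice are shared with the comparison of Con A with control, so the 2 sets of values are given side by side and not counted as separate evidence. Serpind1 (-1.80 after Con A and -0.33 with the cells, 95% interval -1.49 to 0.82) and Serpina12 (-1.19 and -0.08, 95% interval -0.96 to 0.81) passed after Con A and did not pass with the cells. The log2 fold changes over control after Con A and with the cells were 5.07 and 4.47 for Serpina3n, 5.53 and 4.41 for Serpina3i, 5.15 and 2.79 for Serpina3f, and -5.25 and -5.96 for Serpina6. Those of Serpina3i were 4.36 and 3.30 with a pseudocount of 10.

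The smallest changes among the genes that were higher did not hold in every setting. Serpinb9 (0.62, limma adjusted p = 0.0185), Serpinb6b (0.74, 0.0268) and Serpinb2 (0.90, 0.0305) overlapped with control, because in each case 1 Con A + MSCs mouse was within the control range. Serpinb9 lost its call without control replicate 2 (0.0573) or Con A + MSCs replicate 1 (0.0603) and fell under the fold limit without Con A + MSCs replicate 2 (0.54). Serpinb6b lost it without control replicate 3 (0.0673) or Con A + MSCs replicate 1 (0.0876), 2 (0.06) or 3 (0.0616). Serpinb2 lost it without each control replicate (between 0.0503 and 0.0547) or without Con A + MSCs replicate 1 (0.1), 2 (0.0512) or 4 (0.0699). Under other settings Serpinb2 lost its call with quantile normalization (0.54, limma adjusted p = 0.212) and with only the 8 mice compared (0.0691), Serpinb6b with only the 8 mice compared (0.06), and Serpinb9 fell under the fold limit with median-of-ratios scaling (0.58). All 3 were under a fold limit of 2. Serpini1 (-0.84, limma adjusted p = 0.064) passed without control replicate 4 (0.0193) or Con A + MSCs replicate 2 (0.0281), and Serping1 (0.51) passed without control replicate 3 (0.63, limma adjusted p = 0.00196).

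Other protease inhibitors of the liver changed beside the serpins after Con A. Of 28 listed, 25 were in the table, and 7 rose and 8 fell (60%, beside the 38.8% of all genes). A2m, α2-macroglobulin (log2 fold change 10.26), Timp1, an inhibitor of matrix metalloproteinases (6.43), and Slpi, an inhibitor of leukocyte proteases (5.50), rose the most. A2m and Timp1 were near 0 in control mice (means 2.75, SD 3.77, and 3, SD 2.58, n = 4), so the sizes depended on the pseudocount and were 7.93 for A2m, 4.48 for Timp1 and 5.14 for Slpi with a pseudocount of 10. With the cells, Hrg (1.22), Mug2 (0.86) and Mug1 (0.66) rose over Con A, and Timp3 (-1.27) and Cstb (-0.72) fell. That is 20% of the 25, beside 8.58% of all genes. Of these 3 rises and 2 falls, 0 were left without Con A replicate 1 or Con A + MSCs replicate 2 or 3, 0 rises and 1 fall without Con A replicate 4, 1 rise without Con A replicate 3 and 0 rises without Con A + MSCs replicate 1. Of 12 lysosomal cathepsins and legumain, some of which Serpina3g and clade B members inhibit, 11 were in the table, and 3 rose and 3 fell after Con A, or 1 and 1 at a fold limit of 2. That is 54.5% of the 11. Ctsf fell (-1.55), and Lgmn (1.55) and Ctsl (0.90) rose. With the cells Ctsh rose by 0.64 and Lgmn fell by 0.61, 18.2% of the 11. Both of these were lost without Con A replicate 1 or 4 or Con A + MSCs replicate 2 or 3, Ctsh also without Con A + MSCs replicate 1 and Lgmn also without Con A + MSCs replicate 4.

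Of 20 listed acute phase plasma proteins other than serpins, 18 rose and 1 fell after Con A (95%, beside the 38.8% of all genes), with Saa3 (10.09), Saa2 (7.22) and Cd14 (6.37) changing the most. Saa2 was at the ceiling of 341028 in all Con A + MSCs mice. Between the treated groups Cd14 (-1.33) and Il1rn (-1.20) fell, and Hpx rose by 1.21. Hpx moved from 147377 in every Con A mouse to the ceiling of 341028 in every Con A + MSCs mouse, with no spread in either group. These 3 genes are 15% of the 20, beside 8.58% of all genes. The falls of Cd14 and Il1rn were 0 in number without Con A replicate 1 or Con A + MSCs replicate 3 and 1 without Con A + MSCs replicate 2. Of 20 genes of acute phase signaling, 19 were in the table, and 7 rose and 4 fell after Con A, 57.9% of them (2 fell without control replicate 2 or 4, Con A replicate 1 or Con A + MSCs replicate 1), led by Osmr, the oncostatin M receptor (2.71), Il1r1 (2.17) and Socs3 (2.15). With the cells 0 rose and 4 fell, 21.1% of the 19, beside 8.58% of all genes. These were Cebpb (-1.23), Junb (-1.18), Nfkbia (-0.99) and Onecut1. However, 0 fell without Con A replicate 1 or Con A + MSCs replicate 2 or 3. Without Con A replicate 4 there was 1 fall, and there were 2 without Con A replicate 3 or Con A + MSCs replicate 1. All 19 genes that act in the secretion and clearance of serpins were in the table, and 5 rose and 3 fell after Con A. These 42.1% are close to the 38.8% of all genes, and the median log2 difference over the 19 genes was 0.22. Derl3 (3.32, or 2.95 with a pseudocount of 10), Asgr2 (-1.59) and Syvn1 (1.24) moved the most. Between the treated groups Asgr2 rose by 0.98 and Vldlr, a receptor that takes up protease complexes of serpins, fell by 1.84. These 2 of 19 genes are 10.5%, close to the 8.58% of all genes. Both were lost without Con A replicate 1 or 4 or Con A + MSCs replicate 2 or 3, and Vldlr also without control replicate 2, 3 or 4, Con A replicate 3 or Con A + MSCs replicate 1.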

How the data were processed

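Liver RNA of 12 mice (4 per group, from the sample labels) was selected with poly-T beads and sequenced as 150 bp paired-end reads. The submitters' processing notes name Bowtie2 2.2.1, RSEM 1.2.18 and mm10. The deposited values are scores, whole numbers that the authors normalized between mice by a method not given in the sources used here. Scores are not counts, so no count test was run, depth is unknown, and no counting error is given. Each of the 11289 genes reached 64 in at least 2 mice, so lower genes had been left out. The limit on the fold change, 1.5, was taken from the study.

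Here log2(score + 1) was fitted with limma 3.58.1 in R 4.3.3 (lmFit, eBayes with a trend) to all 12 mice, with group as the only factor. A gene passed at an adjusted p below 0.05 (Benjamini-Hochberg over all genes) and a fold change above 1.5, and single genes were also compared by two-sided exact permutation tests with scipy 1.17.1. Python 3.11.15, pandas 2.3.3, numpy 2.4.6, Biopython 1.88 and matplotlib 3.10.9 were used for summaries, sequences and plots. Data were simulated with 200 of 11289 genes changed between Con A and control. There the fit recovered 60.5% of log2 changes of 0.8 and 92% of 1.5, with 3.97% and 2.65% of calls false. In the deposited scores 4379 genes passed in this comparison, and scores were tied. Whether these rates hold for the deposited scores was not tested. Recovery and false calls between the treated groups were not tested either.

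All Serpin genes of the table were described, those called in any comparison in every mouse, and from each list the 3 largest called Con A changes and every gene called between the treated groups were named. The Serpin genes, the lists and the tests were chosen with earlier results of these data known. Other settings were each mouse left out in turn, a replicate block, quantile normalization, median-of-ratios scaling, centring on the median, a pseudocount of 10, a filter on a mean of 100, no trend, fits of 8 mice, unadjusted p-values, a fold limit of 2 and no fold limit. A fit without the genes that reach the 60 highest scores was added after seeing the data. The test planned for a table of raw counts was not run. Some genes that these rules would name are not reported here. Proteins were not printed, and human RNA from the cells was not separated from mouse RNA here.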

Additional observations from a re-analysis of the deposited data

Results flagged for a closer look

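In groups of 4 mice, the gap of the highest or lowest mouse to its neighbor was divided by the range of the group on the log2 scale, and mice above Dixon's 95% critical value are given. Of 84 groups tested 10 were above it. The rate of about 1 in 20 by chance holds for independent normal values without ties. It cannot be set against this count, since scores were tied and the genes share the same mice. Con A replicate 4 accounted for 5 of them. It was lowest for Serpina10 (ratio 0.854, 6182 against 13327 to 15198), for Serpinh1 (0.945, 404 against 856 to 894), for Serpina1a (1, 34359 against 58110 in the other 3 mice) and for Serping1 (1, 25738 against 29578), and highest for Serpinc1 (1, 29578 against 25738). Con A + MSCs replicate 1 was lowest for Serping1 (1, 25738 against 29578) and highest for Serpinc1 (1, 29578 against 25738). Control replicate 1 was highest for Serpinc1 (1, 44248 against 34238) and for Serpinh1 (0.900, 462 against 287 to 301), and control replicate 4 was lowest for Serpini1 (0.879, 44 against 89 to 98). A ratio of 1 arose where the other 3 mice had the same deposited score, so for Serpina1a, Serpinc1 and Serping1 it stands for a move of a single mouse between listed scores. Without Con A replicate 4, 14 Serpin genes rose and 8 fell after Con A, and 1 rose and 0 fell with the cells.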

How the results depend on the processing

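After Con A, 14 Serpin genes rose and 9 fell, and these counts stayed within 1.5 times under every alternative run, from 11 to 16 and from 6 to 10. With each mouse left out in turn they were 14 to 15 and 8 to 9. For Con A + MSCs against control they were 11 to 14 higher and 7 to 8 lower with a mouse left out, and 4 lower without the genes that reach the 60 highest scores, which leaves out 9 Serpin genes. Between the treated groups, where 1 rose and 2 fell, 3 rose and 6 fell at the unadjusted p, and 0 rose at a fold change above 2. With a mouse left out 0 to 2 rose and 0 to 4 fell there. With the replicate number as a block 3 rose and 3 fell between the treated groups, with Serpind1 (limma adjusted p = 0.0381), Serpina12 (0.0467) and Serpina3m (0.0379) added. Deviations of same-numbered mice correlated between -0.118 and 0.375, above 0.1 in some pairs and not in others. With 4 mice per group these correlations cannot decide whether the numbers pair the mice. The cause of the added calls was not tested. Counts of the other gene lists also moved by over 1.5 times. At a fold change above 2, after Con A, 5 other protease inhibitors, 0 acute phase proteins and 1 acute phase signaling gene fell, and 3 secretion and clearance genes rose and 1 fell. Without the genes that reach the 60 highest scores 8 acute phase proteins rose and 0 fell, and 2 carriers fell, and with a mean value of at least 100 only 3 clotting genes rose. The falls of signaling genes were 2 without a trend in the variance, and collagen genes that fell were 1 with median-of-ratios scaling or the unadjusted p and 2 with only the 8 mice compared. Between the treated groups, at a fold change above 2, 2 clotting genes and 1 other protease inhibitor rose, 1 other protease inhibitor, 1 collagen gene and 2 signaling genes fell, and the calls of Masp2, Srgn, Asgr2, Ctsh and Lgmn were lost. With only the 8 mice compared 2 clotting genes, 0 other protease inhibitors and 2 acute phase proteins rose, and Masp2, Srgn and Vldlr were lost. Srgn and Vldlr were also lost with a pseudocount of 10, Vldlr without a trend and Hpx without the highest scores, and 1 clotting gene fell with a mean value of at least 100. No direction of a called gene was reversed. Centring on the median and quantile normalization could hardly change the highest values, since 8024 of them were already the same numbers in every mouse. These settings are therefore a weak check of the authors' normalization. Low scores limit the size of some changes: with a pseudocount of 10 the log2 fold change after Con A was 4.36 instead of 5.53 for Serpina3i and 2.14 instead of 3.93 for Serpina3c. Shared high scores limit those of Serpina1b, Serpina1c, Serpina3k and Serpina3n, and depth is unknown.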
